A study of Homo sapiens with 6 samples.

Results

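The 36 genes described here centre on ATF4, the transcription factor of the integrated stress response, and on amino acid and one-carbon genes. Many of the latter are described as ATF4 targets. The 36 genes were chosen by symbol from 65746 symbols in the count table, and all were found. They were grouped as 6 transcription factors, 6 stress genes, 9 serine and folate enzymes, 6 other amino acid enzymes and 9 amino acid transporters. RNA was measured in SU-DHL-8, a single established human line of diffuse large B-cell lymphoma of wild-type genotype, kept in culture medium with serum and antibiotics. Cells received 100 nM erianin, a bibenzyl compound of Dendrobium orchids that is described as binding tubulin, for 24 h. Control cells received DMSO, the solvent, for the same time. Each group had 3 libraries from what the series calls replicate experiments, with 30956443 to 35588728 counts per library.

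When the kinases PERK, GCN2, PKR or HRI phosphorylate the translation factor eIF2, general protein synthesis slows while translation of the ATF4 mRNA rises. ATF4 then pairs with C/EBP and other bZIP partners on response elements and raises genes that import amino acids, make serine, glycine, asparagine and proline, and carry one-carbon units on folate. Its level is set to a large part by translation, so the ATF4 transcript alone does not report its activity.

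Levels are counts per 1000000 counts (CPM) scaled by TMM factors, and fold changes are on the log2 scale, erianin over DMSO, with their standard error (SE). A gene was called when its Benjamini-Hochberg adjusted p in the edgeR quasi-likelihood test over all genes was under 0.05. The control library DMSO replicate 1 differed from the rest. Its biological coefficient of variation against DMSO replicates 2 and 3 was 0.291 and 0.294, while that between the latter was 0.0381. Counts of calls and the values of the 31 tested genes are therefore given with all 6 libraries and, where it matters to a call, without that one. The line was checked against its cell type. All 7 B cell markers were detected, summing to 2815 to 3787 CPM with DMSO and 2327 to 2597 CPM with erianin. They did not move together: CD79B had 1050.2, 2056 and 2073 CPM with DMSO and 877 to 1024 CPM with erianin, while CD79A had 447 to 453 CPM with DMSO and 564 to 643 CPM with erianin. PAX5 and EBF1 were lower and CD22 higher in every erianin library than in any DMSO library. T cell markers summed to 1.37 to 3.75 CPM, fibroblast markers to at most 0.218 CPM, and 2 of 5 and 2 of 4 of them were at 0 throughout. Myeloid markers summed to 4.30 to 7.27 CPM with DMSO and 9.42 to 10.6 CPM with erianin. Whether these shifts bear on the genes below was not tested. In bulk RNA, fewer cells expressing a gene and less RNA per cell cannot be told apart.

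More of these genes were called lower than higher. Of the 31 genes with enough counts to be tested, 2 rose, 11 fell and 18 were not called. Among all 11550 genes tested, 24.2% were called, 11.8% as higher and 12.3% as lower. The median log2 fold change was -0.28 over the 31 genes and -0.0033 over all genes. With DMSO replicate 1 left out, 5 of these genes were called higher and 18 lower, beside 27.8% and 27.4% (55.3% together) of all 11773 genes tested in that fit, and the medians were -0.43 and 0.029. The 13 genes called with all libraries were also called in the same direction without it. In 18 of the 31 the 2 groups did not overlap, as was the case for 46.8% of all genes tested. In 28 of the 31 the erianin values lay apart from DMSO replicates 2 and 3, beside 69.5% of all genes tested. The genes that fell were SHMT1, SHMT2, MTHFD1, MTHFD2, ASNS, CTH, TRIB3, SLC7A1, SLC7A11, SLC1A4 and SLC38A2, and those that rose were ATF5 and ALDH18A1. Leaving out 1 library other than DMSO replicate 1 ended 9 of the 13 calls. Calls over all genes also became fewer in those fits, at 6.36% to 16.9% of genes tested, beside 24.2% with all libraries. MTHFD1, MTHFD2, CTH and SLC7A1 were called without each single library in turn. With limma on log2(TPM + 1), a scale on which the median of all genes was 0.20, ASNS, CTH and SLC38A2 were the 3 genes called, all lower, beside 2.27% of all genes called lower and 12.2% higher on that scale.

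**Figure D1:**
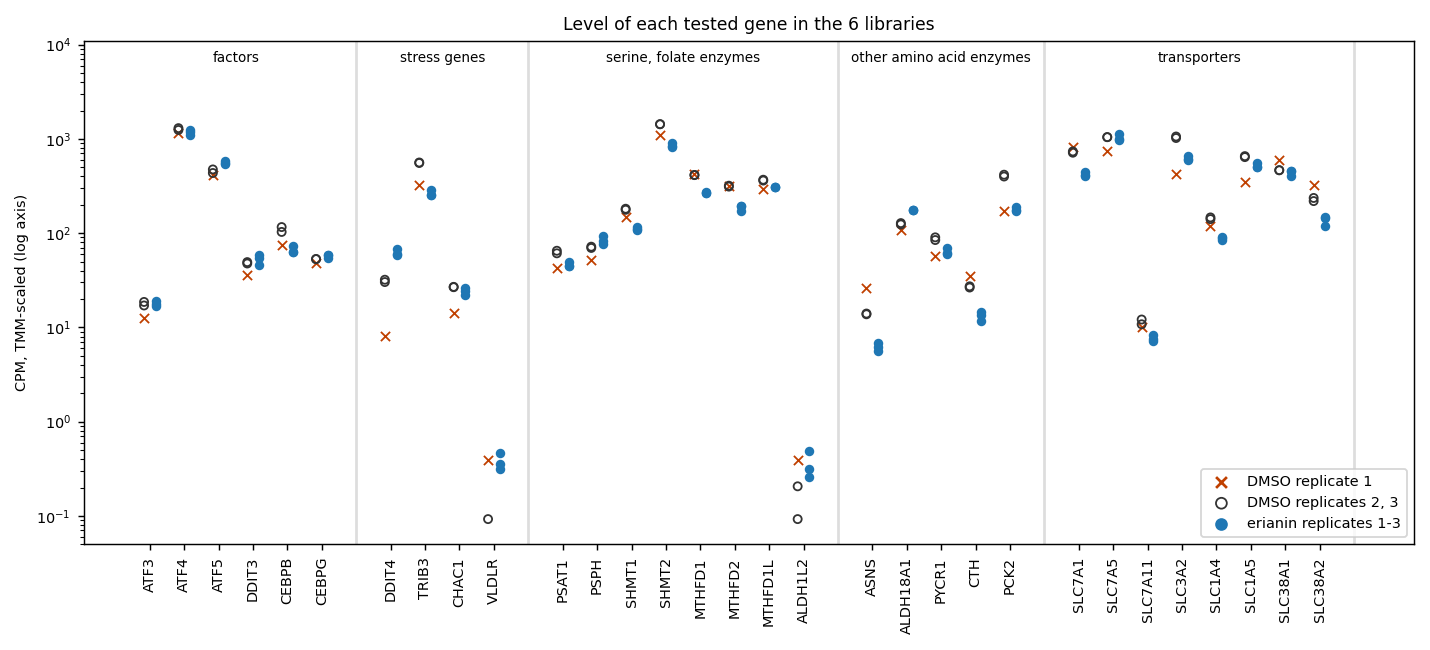
CPM (log axis) of the 31 tested genes in each library, by class, with DMSO replicate 1 as crosses, DMSO replicates 2 and 3 as open circles and erianin libraries as filled circles. ASNS, CTH and SLC7A1 lie lower in every erianin library than in any DMSO library, while DMSO replicate 1 sits apart from the other DMSO libraries for DDIT4, SLC3A2 and PCK2. VLDLR had no count in DMSO replicate 3 and has no point there.

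The element through which ATF4 and its C/EBP partners act has the core TGATGNAA. Windows from 250 bases before to 50 bases after annotated starts were available for 30 of the 36 genes (RefSeq, GRCh38.p14), all but NUPR1, PSPH, SHMT2, ALDH1L2, PYCR1 and SLC7A11. On either strand, 10 of these 30 genes (33.3%) held the core in at least 1 window, against 4.46% of the 27305 symbols with a window and 3.62% of the 35116 windows. Genes of this group have more annotated starts than the average symbol, with 51 windows. A match is a string of letters, not evidence of binding. The sites are shown because they name the genes of the group that carry the core in these windows. Sequence outside the windows, and genes without a window, were not searched. Of these 10 genes, 3 fell (ASNS, SLC1A4 and SLC7A1), 0 rose and 7 were not called in the edgeR fit with all libraries. Of all 31 tested genes of the group, 11 fell and 2 rose in that fit, beside 12.3% and 11.8% of all genes tested. In the fit without DMSO replicate 1, MTHFD1L, SLC1A5 and SLC3A2 were also called lower, giving 6 lower and 0 higher. There, 18 of the 31 were lower and 5 higher, beside 27.4% and 27.8% of all genes tested. Whether the core goes with a fall was not tested. Each line gives 30 bases on the strand that reads the core forwards, with the core in capitals.
ASNS: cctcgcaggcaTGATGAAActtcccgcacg
SLC1A4: ccggctggagaTGATGCAAacgggagccgc
SLC7A1: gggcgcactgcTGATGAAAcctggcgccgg
CEBPG: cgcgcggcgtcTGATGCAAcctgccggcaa
CHAC1: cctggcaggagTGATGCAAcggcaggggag
MTHFD1L: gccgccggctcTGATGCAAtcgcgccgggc
SLC1A5: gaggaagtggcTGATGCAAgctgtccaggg
SLC38A1: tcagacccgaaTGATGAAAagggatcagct
ATF3: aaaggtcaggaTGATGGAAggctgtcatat
SLC3A2: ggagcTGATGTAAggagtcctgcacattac

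The ASNS site lies at chr7:97872458-97872487 on the minus strand, and its core begins 68 bases before 1 of 2 annotated starts. In SLC1A4 the core runs from 7 bases before 1 of its annotated starts to the start base itself (chr2:64989381-64989410, minus strand). In SLC7A1 it lies 8 bases after the start (chr13:29595663-29595692, minus strand). The CEBPG core is 42 bases before 1 start (chr19:33374060-33374089, plus strand) and that of CHAC1 209 bases before the start (chr15:40953251-40953280, minus strand). The single MTHFD1L site (chr6:150866346-150866375, plus strand) falls in 3 overlapping windows. Of the 10 genes, 5 held the narrower TGATGCAA (CEBPG, CHAC1, MTHFD1L, SLC1A4 and SLC1A5), which stood in 0.866% of all windows.

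Of the 6 transcription factors, 1 rose and 5 were not called, and without DMSO replicate 1, 1 was called higher and 1 lower. Among all genes tested, 11.8% rose and 12.3% fell, or 27.8% and 27.4% without that library. ATF4 itself (chr22:39519695-39522685, plus strand) had 1153, 1300.0 and 1243 CPM in DMSO replicates 1, 2 and 3 and 1177, 1107 and 1230.3 CPM in erianin replicates 1, 2 and 3. The groups overlapped, and the log2 fold change was -0.07 ± 0.10 (SE, adjusted p = 0.65) with all libraries and -0.11 ± 0.06 (adjusted p = 0.15) without DMSO replicate 1. Per length, in the deposited TPM, ATF4 was the highest of the 36 genes in every library.

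ATF5, an ATF4-related factor whose mRNA is likewise under translational control, had 416, 434 and 474 CPM with DMSO and 552, 546 and 584 CPM with erianin. The groups did not overlap, and the gene rose (0.35 ± 0.10, adjusted p = 0.041; 0.32 ± 0.06, adjusted p = 0.0001, without DMSO replicate 1). The call ended without any 1 of the other 5 libraries (adjusted p up to 0.14), with the GC content and length offsets (0.084), with the replicate block (0.099) and with no filter (0.076). Of the exonic bases of ATF5, 21.2% overlap NUP62 on the opposite strand, a gene with 39107 counts over the 6 libraries, so reads may be shared.

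CEBPB, a bZIP partner of ATF4, had 75.0, 103 and 116 CPM with DMSO and 63.6, 63.2 and 73.2 CPM with erianin. All erianin values lay below all DMSO values, and the difference just missed the threshold (-0.56 ± 0.17, adjusted p = 0.053). Without DMSO replicate 1 CEBPB was called lower (-0.70 ± 0.08, adjusted p = 2.0e-08), as with the replicate block (adjusted p = 0.044), DESeq2 (0.020), no filter (0.041) and the offsets (0.0012). CEBPG, the partner that forms stable dimers with ATF4, had 48.7 to 53.2 CPM with DMSO and 54.7 to 59.0 CPM with erianin (0.15 ± 0.10, adjusted p = 0.31). Its groups were close but did not overlap.

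DDIT3, which encodes the stress factor CHOP, had 36.1, 49.3 and 47.6 CPM with DMSO and 54.0, 46.5 and 58.3 CPM with erianin (0.25 ± 0.15, adjusted p = 0.27). Its groups overlapped, and without DMSO replicate 1 the adjusted p was 0.17. ATF3, a repressor induced in many stresses, spanned 12.6 to 18.6 CPM with DMSO and 16.8 to 19.1 CPM with erianin (0.15 ± 0.16, adjusted p = 0.54; 0.016 ± 0.097, adjusted p = 0.90, without DMSO replicate 1). Neither of these 2 classical targets was called in the edgeR fits without offsets, with all libraries or without DMSO replicate 1. With GC content and length offsets and without DMSO replicate 1, DDIT3 was called higher (0.16 ± 0.07, adjusted p = 0.043). In that fit 63.3% of all genes were called. Of the exonic bases of DDIT3, 27.2% overlap MARS on the opposite strand.

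**Figure D2:**
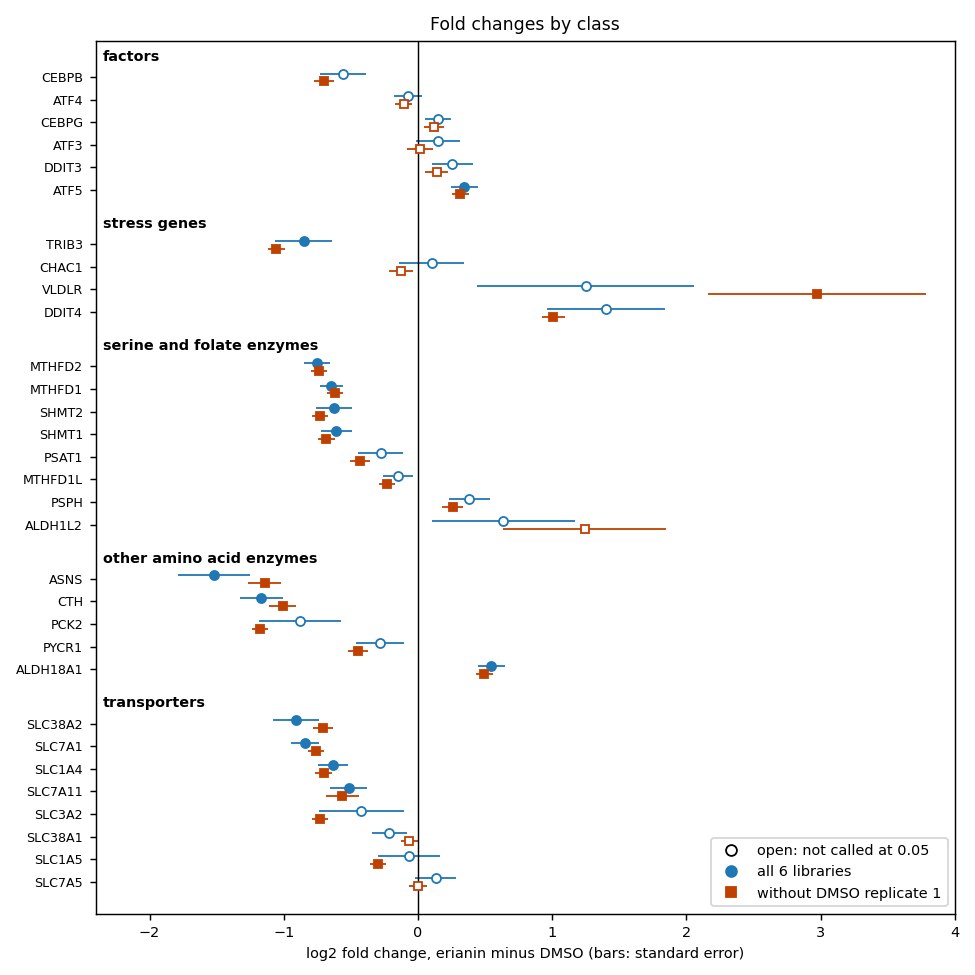
Log2 fold change of erianin minus DMSO with its standard error for the 31 tested genes by class, with all 6 libraries (blue circles) and without DMSO replicate 1 (red squares), filled where called at an adjusted p under 0.05. Values to the left of 0 are lower with erianin, and most serine, folate and other amino acid enzymes and most transporters lie there.

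Of the 4 stress genes tested, 1 fell and 3 were not called, and without DMSO replicate 1, 2 were called higher and 1 lower. The shares of all genes were 11.8% higher and 12.3% lower, or 27.8% and 27.4% without that library. TRIB3, a pseudokinase that restrains ATF4 and CHOP, had 324, 562 and 555 CPM with DMSO and 254, 256 and 288 CPM with erianin. It was lower in every erianin library than in any DMSO library and fell (-0.85 ± 0.21, adjusted p = 0.026; -1.06 ± 0.06, adjusted p = 6.1e-13, without DMSO replicate 1). Leaving out any 1 of the other 5 libraries ended the call (adjusted p up to 0.11).

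DDIT4, also named REDD1, an inhibitor of mTORC1, showed higher values with erianin. Its DMSO values were 8.18, 30.3 and 32.0 CPM and its erianin values 58.2, 59.7 and 68.6 CPM. The groups did not overlap, yet DMSO replicate 1 was so low that the spread left the gene uncalled (1.402 ± 0.44, adjusted p = 0.057). Without that library DDIT4 was called higher (1.01 ± 0.08, adjusted p = 2.7e-10). It was also called with the replicate block (adjusted p = 0.022), the offsets (0.018), DESeq2 (0.0064), limma-voom (0.042), no filter (0.022) and total counts alone (0.042). Of its exonic bases, 41.2% overlap DDIT4-AS1 on the opposite strand.

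CHAC1, an enzyme that degrades glutathione, had 14.2, 26.7 and 26.9 CPM with DMSO and 22.1 to 26.2 CPM with erianin (0.10 ± 0.24, adjusted p = 0.79). DMSO replicate 1 was the lowest of the 6 libraries, and the erianin values lay just below DMSO replicates 2 and 3. Leaving out replicate 1 turned the estimate to -0.13 ± 0.09 (adjusted p = 0.23). VLDLR, a lipoprotein receptor gene, had 12, 3 and 0 counts with DMSO and 13, 16 and 11 counts with erianin (adjusted p = 0.30). Without DMSO replicate 1 it was called higher (adjusted p = 0.0031) from 3 and 0 control counts, so the size of this difference is poorly set. STC2, a secreted glycoprotein gene, had 2, 1 and 2 counts with DMSO and 0 with erianin, under the floor of 3 counts per library, and was not tested. NUPR1, a small stress-induced chromatin protein gene, was listed at 0 in every library.

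Serine synthesis and folate enzymes fell or were not called in the fit with all libraries: of the 8 tested, 4 fell and 0 rose, and DESeq2 and limma-voom gave the same counts. At an unadjusted p under 0.05, 1 was higher and 4 lower. Over all genes, 19% were higher and 19.4% lower at that unadjusted p, DESeq2 called 15.1% higher and 16.4% lower, and limma-voom 12.1% and 11.8%. In the fit without DMSO replicate 1, 6 were called lower and 1 higher, beside 27.4% and 27.8% of all genes. With all libraries, edgeR called 12.3% of all genes lower and 11.8% higher. SHMT2 and SHMT1 make glycine from serine in the mitochondrion and the cytosol and load one carbon onto folate. SHMT2 had 1101, 1432 and 1429.8 CPM with DMSO and 835, 821 and 909.9 CPM with erianin (-0.63 ± 0.13, adjusted p = 0.016). SHMT1 had 148, 177 and 182 CPM with DMSO and 107, 110.3 and 115 CPM with erianin (-0.61 ± 0.11, adjusted p = 0.010). Groups did not overlap for either gene, and without DMSO replicate 1 the log2 fold changes were -0.73 ± 0.06 (adjusted p = 2.7e-10) and -0.68 ± 0.06 (adjusted p = 1.1e-09). The call of SHMT2 ended without DMSO replicate 2 or any erianin library (adjusted p up to 0.089). That of SHMT1 ended without erianin replicate 1 or 2 (adjusted p up to 0.071).

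MTHFD2, the mitochondrial dehydrogenase and cyclohydrolase of the folate cycle, had 317, 319 and 312 CPM with DMSO and 195, 193 and 174 CPM with erianin. DMSO replicate 1 lay between the other DMSO libraries, and the gene fell (-0.75 ± 0.09, adjusted p = 0.0033). MTHFD1, the cytosolic enzyme with 3 folate activities, fell from 427, 413 and 415 CPM to 270.01, 267 and 264 CPM (-0.65 ± 0.09, adjusted p = 0.0038). With DMSO replicate 1 left out, the log2 fold changes were -0.74 ± 0.06 (adjusted p = 3.6e-10) for MTHFD2 and -0.62 ± 0.06 (adjusted p = 1.6e-09) for MTHFD1. MTHFD1L, the mitochondrial formyltetrahydrofolate synthetase, had 296, 361 and 369 CPM with DMSO and 308, 306 and 311 CPM with erianin (-0.15 ± 0.11, adjusted p = 0.37). Its groups overlapped through DMSO replicate 1, and without that library it was called lower (-0.23 ± 0.06, adjusted p = 0.0014).

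Serine synthesis runs from a glycolytic intermediate through PHGDH, PSAT1 and PSPH. PHGDH, its first enzyme, had 1 count in all, in DMSO replicate 3, although PSAT1 and PSPH were well counted. With DMSO, PSAT1 had 42.6, 61.1 and 65.0 CPM, and with erianin 49.98, 44.8 and 44.3 CPM (-0.28 ± 0.17, adjusted p = 0.27). PSPH had 51.5, 69.6 and 71.8 CPM with DMSO and 82.0, 92.5 and 76.97 CPM with erianin (0.38 ± 0.15, adjusted p = 0.11). Without DMSO replicate 1, PSAT1 was called lower (-0.43 ± 0.08, adjusted p = 3.4e-05) and PSPH higher (0.26 ± 0.08, adjusted p = 0.0058), so the last 2 steps of the same pathway were called in opposite directions. ALDH1L2, a mitochondrial enzyme that oxidises formyltetrahydrofolate, was near the floor with 3 to 12 counts with DMSO and 9 to 18 with erianin (adjusted p = 0.43).

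Of the 5 other amino acid enzymes tested, 1 rose and 2 fell, and without DMSO replicate 1, 1 was called higher and 4 lower. Of all genes tested, 11.8% rose and 12.3% fell, or 27.8% and 27.4% without that library. ASNS, asparagine synthetase (chr7:97852118-97872542, minus strand), had 25.9, 14.0 and 13.8 CPM with DMSO and 6.88, 6.18 and 5.63 CPM with erianin. It fell (-1.52 ± 0.27, adjusted p = 0.0086), and by 1.14 ± 0.12 on the log2 scale without DMSO replicate 1 (adjusted p = 1.8e-08). Its call ended by a small margin without erianin replicate 2 or 3 (adjusted p up to 0.053). In GENCODE 29, 44.6% of its exonic bases also belong to the transcript AC079781.5 on the same strand. CTH, the cystathionine gamma-lyase that releases cysteine in transsulfuration, had 35.4, 26.5 and 27.3 CPM with DMSO and 13.5, 14.6 and 11.6 CPM with erianin. This gene fell (-1.17 ± 0.16, adjusted p = 0.0040; -1.01 ± 0.10, adjusted p = 5.0e-09, without DMSO replicate 1).

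PCK2, the mitochondrial phosphoenolpyruvate carboxykinase, showed how far 1 library decided a value. It had 171, 399 and 417 CPM with DMSO and 174, 171 and 190.3 CPM with erianin, so DMSO replicate 1 matched the erianin libraries. With all libraries it was not called (-0.88 ± 0.31, adjusted p = 0.076). Without that library it was called lower (-1.18 ± 0.06, adjusted p = 5.2e-14), and also with the offsets (adjusted p = 0.015), DESeq2 (0.023) and no filter (0.038).

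ALDH18A1 and PYCR1 are the first and last enzymes of proline synthesis from glutamate. ALDH18A1 had 109, 128 and 124 CPM with DMSO and 177, 175 and 174 CPM with erianin. All erianin values were higher, and it rose (0.55 ± 0.10, adjusted p = 0.010), a call that ended without erianin replicate 1 or 2 (adjusted p up to 0.062). PYCR1 had 57.0, 90.2 and 84.5 CPM with DMSO and 62.2, 59.4 and 69.0 CPM with erianin (-0.28 ± 0.18, adjusted p = 0.29). Without DMSO replicate 1, PYCR1 was called lower (-0.45 ± 0.07, adjusted p = 1.5e-05) while ALDH18A1 was called higher (0.49 ± 0.06, adjusted p = 2.2e-07). CBS, cystathionine beta-synthase, was listed at 0 throughout. It has a near-identical copy, CBSL, so no level was read from its 0.

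Among the 8 transporters tested, 4 fell, 0 rose and 4 were not called, with DESeq2 and limma-voom as with edgeR, and 0 were higher and 4 lower at an unadjusted p under 0.05. The fit without DMSO replicate 1 gave 6 lower and 0 higher, beside 27.4% and 27.8% of all genes. With all libraries, the shares of all genes lower and higher were 12.3% and 11.8% with edgeR and 16.4% and 15.1% with DESeq2. They were 11.8% and 12.1% with limma-voom, and 19.4% and 19% at that unadjusted p. SLC7A1, the cationic amino acid transporter that brings in arginine and lysine, had 825, 736 and 713 CPM with DMSO and 408, 417 and 447 CPM with erianin (-0.84 ± 0.10, adjusted p = 0.0031). SLC38A2, a transporter of small neutral amino acids that amino acid starvation is known to induce, had 321, 219 and 236 CPM with DMSO and 146, 148 and 119 CPM with erianin (-0.91 ± 0.17, adjusted p = 0.011). Neither gene's groups overlapped, and without DMSO replicate 1 the falls were -0.76 ± 0.06 (adjusted p = 9.5e-11) and -0.71 ± 0.07 (adjusted p = 1.5e-08). The call of SLC38A2 ended without any 1 erianin library (adjusted p up to 0.056).

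SLC1A4, a carrier of alanine, serine and cysteine, had 119.9, 147 and 141 CPM with DMSO and 88.0, 84.7 and 90.1 CPM with erianin. This transporter fell (-0.63 ± 0.11, adjusted p = 0.0088; -0.70 ± 0.06, adjusted p = 1.2e-09, without DMSO replicate 1), and the call ended without erianin replicate 1 or 2 (adjusted p up to 0.065). SLC7A11, the cystine-glutamate exchanger subunit xCT, was low with 10.0, 10.8 and 12.1 CPM and fell to 7.56, 8.38 and 7.09 CPM (-0.52 ± 0.14, adjusted p = 0.033; -0.56 ± 0.12, adjusted p = 0.00035, without DMSO replicate 1). Its call ended without any 1 of the other 5 libraries (adjusted p up to 0.14). It also ended with the replicate block (0.068), the offsets (0.14), upper-quartile scaling (0.059) and total counts alone (0.074).

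SLC3A2 encodes the heavy chain, also named CD98 or 4F2hc, that carries both SLC7A5 and SLC7A11 to the cell surface. It had 420.2, 1021 and 1059.8 CPM with DMSO and 609, 598 and 661 CPM with erianin (-0.42 ± 0.32, adjusted p = 0.37). The erianin values lay above DMSO replicate 1 and below replicates 2 and 3, and without replicate 1 the gene was called lower (-0.73 ± 0.06, adjusted p = 2.7e-10). SLC7A5, the large neutral amino acid transporter LAT1, had 747, 1042 and 1045 CPM with DMSO and 997, 976 and 1132 CPM with erianin (0.13 ± 0.15, adjusted p = 0.58). Without DMSO replicate 1 the estimate was 0.00098 ± 0.065 (adjusted p = 0.99). The glutamine transporter gene SLC1A5 had 346, 641 and 656 CPM with DMSO and 506, 506 and 554 CPM with erianin (-0.07 ± 0.23, adjusted p = 0.86; called lower, -0.30 ± 0.06, adjusted p = 0.00016, without DMSO replicate 1). SLC38A1, another neutral amino acid transporter, had 602, 466 and 464 CPM with DMSO and 453, 462 and 408 CPM with erianin (-0.21 ± 0.13, adjusted p = 0.29; -0.06 ± 0.06, adjusted p = 0.40, without DMSO replicate 1). SLC6A9, a glycine transporter gene, had 2 counts, both in DMSO replicate 1, and was not tested.

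Paired genes were compared by their TPM ratio within each library, which does not depend on the scaling between libraries. Over 8 pairs, exact permutation tests (two-sided, 3 libraries in each group) can go no lower than p = 0.10, and 5 pairs reached that value (adjusted p = 0.16). SLC38A2 was 0.662, 0.585 and 0.633 times SLC38A1 per length with DMSO, and 0.400, 0.400 and 0.364 times with erianin, a log2 difference of -0.69 (exact permutation p = 0.10). The MTHFD1L to MTHFD1 ratio was 0.878, 1.11 and 1.12 with DMSO and 1.44, 1.45 and 1.49 with erianin, a log2 difference of 0.50, or 0.39 without DMSO replicate 1 (exact permutation p = 0.10). The CEBPB to CEBPG ratio went from 6.26, 7.88 and 8.90 to 4.46, 4.36 and 5.45, and the SLC1A5 to SLC1A4 ratio from 3.85, 5.83 and 6.22 to 7.68, 7.98 and 8.21 (exact permutation p = 0.10 each). The log2 difference was -0.68 for CEBPB to CEBPG and 0.62 for SLC1A5 to SLC1A4, or -0.82 and 0.40 without DMSO replicate 1. The groups did not overlap in any of these 4 ratios. MTHFD2 was 1.23 to 1.28 times MTHFD1 with DMSO and 1.09 to 1.20 times with erianin (exact permutation p = 0.10), a log2 difference of -0.11. SHMT2 was 3.01 to 3.27 times SHMT1 with DMSO and 3.01 to 3.20 times with erianin, with overlapping groups and a log2 difference of -0.016 (exact permutation p = 0.70). SLC7A5 was 4.75, 2.72 and 2.63 times SLC3A2 with DMSO and 4.37, 4.35 and 4.57 times with erianin, with erianin values above DMSO replicates 2 and 3 and below replicate 1 (exact permutation p = 0.40).

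**Figure D3:**
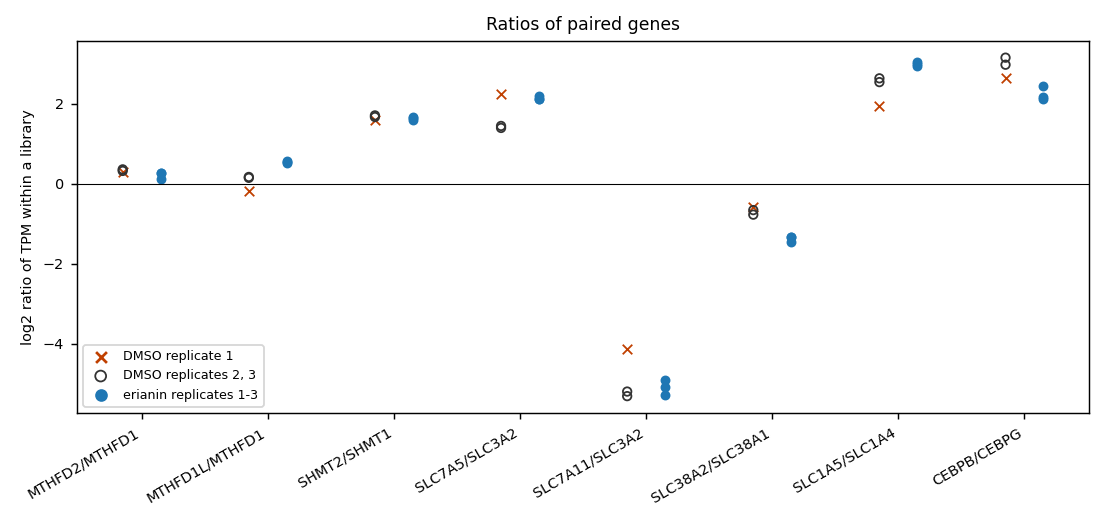
Log2 ratio of the deposited TPM of 2 genes within each library for 8 pairs, with DMSO replicate 1 as crosses, DMSO replicates 2 and 3 as open circles and erianin libraries as filled circles. The SLC38A2 to SLC38A1 ratio lies lower and the MTHFD1L to MTHFD1 ratio higher in all 3 erianin libraries than in any DMSO library, while SHMT2 to SHMT1 overlaps.

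The distance of DMSO replicate 1 from the other DMSO libraries followed base composition in part. Across 10624 genes with at least 10 counts in every library, the log2 ratio of DMSO replicate 1 to the mean of replicates 2 and 3 had a Pearson correlation of -0.52 with GC content of the longest transcript. Across the 29 genes of this group it was -0.60 (Spearman -0.67). These are descriptions over genes that share the same libraries. GC-rich DDIT4 (58.1% GC) stood at 0.263, SLC3A2 (57.4%) at 0.404, PCK2 (61.6%) at 0.419 and CHAC1 (62.6%) at 0.530 of the other DMSO libraries. AT-rich SLC38A2 (38.1%) stood at 1.41 times and SLC38A1 (41.3%) at 1.30 times the other DMSO libraries, and ASNS (47.0%) at 1.86 times. Not every AT-rich gene was high in DMSO replicate 1, with SLC7A11 (35.4%, the lowest GC content of the 29) at 0.875, PSAT1 (42.3%) at 0.676 and MTHFD2 (41.4%) at 1.005 times. Nor was every GC-rich gene far below, with ATF5 (60.0%) at 0.916, ATF4 (56.7%) at 0.907 and CEBPB (66.2%) at 0.685. ATF3 (46.7%), close to ASNS in GC content, stood at 0.707. With offsets for GC content and length in all 6 libraries, 2 of the 31 genes were higher (DDIT4 and ALDH18A1) and 13 lower, beside 18% and 18.2% of 11404 genes.

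**Figure D4:**
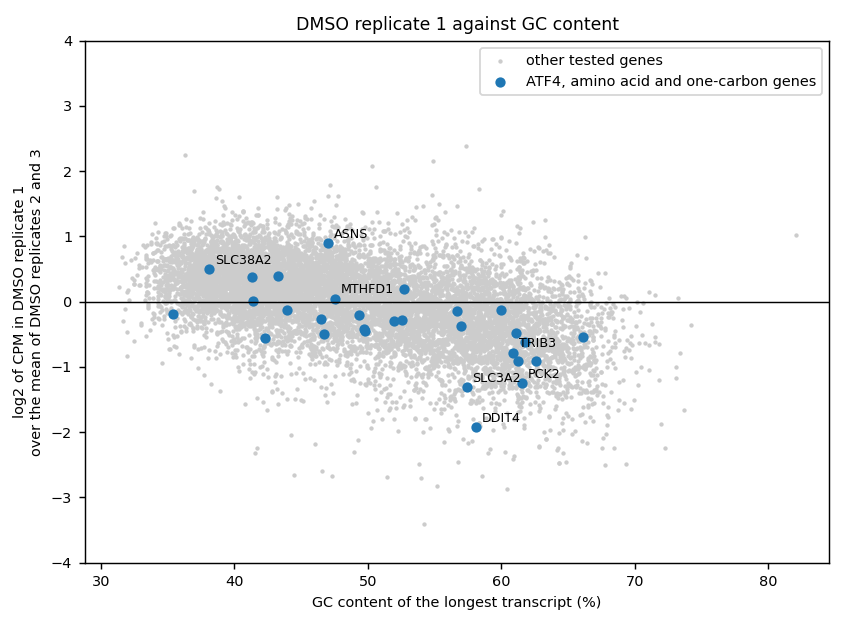
GC content of the longest transcript (%) against the log2 ratio of CPM in DMSO replicate 1 to the mean of DMSO replicates 2 and 3, for 10624 genes (grey) and the 29 genes of this group with at least 10 counts in every library (blue). DDIT4, SLC3A2 and PCK2 lie far below 0 and ASNS and SLC38A2 above it.

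Other genes of the same pathway were read for comparison. Of 15 eIF2 kinase, eIF2, eIF2B and eIF2 phosphatase genes tested, 0 rose and 2 fell in the edgeR fit, and 3 and 7 were called higher and lower without DMSO replicate 1. Of all genes, 11.8% rose and 12.3% fell in that fit, or 27.8% and 27.4% without that library. At an unadjusted p under 0.05, 3 were higher and 4 lower, beside 19% and 19.4% of all genes. DESeq2 called 2 higher and 2 lower, beside 15.1% and 16.4% of all genes. With limma-voom, 0 were called higher and 2 lower, beside 12.1% and 11.8%. EIF2AK3, the endoplasmic reticulum eIF2 kinase PERK, fell from 47.4 ± 2.99 to 26.3 ± 0.916 CPM (mean ± SD, n = 3; -0.85 ± 0.10, adjusted p = 0.0029). EIF2B2, which encodes part of the exchange factor eIF2B, fell from 86.0 ± 14.2 to 45.0 ± 0.0541 CPM (adjusted p = 0.0047). EIF2AK4, the amino acid sensing kinase GCN2, stood at 1.08 ± 0.105 CPM in DMSO libraries and 1.80 ± 0.501 CPM in erianin libraries (adjusted p = 0.078).

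In the wider list of 13 tested genes described as ATF4 targets, 2 rose and 2 fell (5 and 5 without DMSO replicate 1). Over all genes, 11.8% rose and 12.3% fell (27.8% and 27.4% without that library). SESN2, a leucine sensor that inhibits mTORC1 signalling, fell from 91.1 ± 17.9 to 57.0 ± 3.08 CPM (adjusted p = 0.022). VEGFA, a vascular growth factor gene, rose from 56.0 ± 1.16 to 83.5 ± 4.01 CPM (adjusted p = 0.0071), and the low HMOX1, heme oxygenase 1, rose from 0.289 ± 0.0908 to 1.14 ± 0.268 CPM (adjusted p = 0.0086). SESN2 lost its call when any 1 of the libraries except DMSO replicate 1 was left out (adjusted p = 0.056 to 0.10).

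Of 16 other folate and glycine cleavage genes, 4 rose and 3 fell (7 and 4 without DMSO replicate 1). Shares of all genes were 11.8% and 12.3% (27.8% and 27.4% without that library). SFXN1, the mitochondrial serine carrier, rose from 36.3 ± 0.591 to 55.4 ± 2.82 CPM (0.61 ± 0.10, adjusted p = 0.0062), opposite to SHMT2, which uses serine in the same compartment. GLDC, the glycine decarboxylase, rose from a low 0.618 ± 0.0512 to 1.82 ± 0.236 CPM (adjusted p = 0.0045). MTR, methionine synthase, fell from 129 ± 22.9 to 78.3 ± 2.96 CPM (adjusted p = 0.012), a call that ended without any 1 erianin library (adjusted p = 0.060 to 0.072). None of 6 genes of purine synthesis, a pathway that uses formyl folate, was called in the edgeR fit with all libraries. Without DMSO replicate 1, 1 of the 6 was called higher and 2 lower, beside 27.8% and 27.4% of all genes. At an unadjusted p under 0.05, 1 of the 6 was lower and 0 higher, DESeq2 called 1 lower and 0 higher, and limma-voom called 0 in either direction. The matching shares of all genes, lower and higher, were 19.4% and 19%, 16.4% and 15.1%, and 11.8% and 12.1%. PPAT, their first enzyme, had 56.8 ± 6.39 and 68.7 ± 4.13 CPM (adjusted p = 0.14; 0.025 without DMSO replicate 1). ATIC, which carries out the last steps, had 331 ± 21.1 and 272 ± 5.44 CPM (adjusted p = 0.067), and GART 245 ± 41.2 and 224 ± 13.8 CPM (adjusted p = 0.53).

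Among 11 methionine and glutathione genes 1 was called, MAT2A, which makes S-adenosylmethionine and rose from 272 ± 35.6 to 425 ± 12.8 CPM (0.64 ± 0.12, adjusted p = 0.010). The MAT2A call ended without erianin replicate 1 or 2 (adjusted p up to 0.060). Without DMSO replicate 1, 2 of the 11 were called higher and 5 lower, beside 27.8% and 27.4% of all genes. With all libraries, 24.2% of all genes were called. GCLM, a subunit of the enzyme that starts glutathione synthesis, had 13.4 ± 1.09 and 10.4 ± 0.350 CPM (adjusted p = 0.063), and GGT1, which breaks glutathione down outside the cell, 4.60 ± 0.841 and 3.14 ± 0.0238 CPM (adjusted p = 0.063). Other amino acid transporters, 15 of which were tested, held 3 that rose and 3 that fell (6 and 4 without DMSO replicate 1). Over all genes, 11.8% rose and 12.3% fell (27.8% and 27.4% without that library). SLC43A1, a large neutral amino acid transporter, fell from 95.4 ± 10.3 to 36.7 ± 2.46 CPM (-1.38 ± 0.12, adjusted p = 0.0013), and the taurine transporter SLC6A6 rose from 50.5 ± 3.75 to 90.8 ± 2.52 CPM (adjusted p = 0.0029). SLC38A9, the lysosomal arginine sensor upstream of mTORC1 kinase, fell from 22.6 ± 2.49 to 14.7 ± 1.85 CPM (adjusted p = 0.021), a call that ended without DMSO replicate 3 or any erianin library (adjusted p up to 0.097).

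Aminoacyl-tRNA synthetases are a further class of ATF4 targets, but 18 of the 20 cytosolic ones were listed at 0 in all libraries. Those 18 have been renamed in recent releases, and no level was read from the 0. The remaining 2, FARSA and FARSB, form 1 enzyme. FARSA had 235 ± 7.63 and 252 ± 16.2 CPM (adjusted p = 0.49), and FARSB fell from 131 ± 10.3 to 100.4 ± 7.05 CPM (adjusted p = 0.042). FARSB lost its call on removal of each of those same 5 libraries (adjusted p up to 0.15), with the replicate block (0.078), upper-quartile scaling (0.077), total counts alone (0.14) and no filter (0.068). Of 17 mitochondrial synthetases, 1 rose and 3 fell (5 and 6 without DMSO replicate 1). Shares of all genes were 11.8% and 12.3% (27.8% and 27.4% without that library). Among these synthetases, TARS2 fell from 164 ± 6.02 to 118 ± 2.49 CPM (adjusted p = 0.011). The TARS2 call ended without erianin replicate 1 or 2 (adjusted p up to 0.083), as did that of WARS2, which fell from 12.9 ± 1.49 to 7.64 ± 0.302 CPM (adjusted p = 0.0087; up to 0.061). IARS2 rose from 66.7 ± 6.90 to 89.2 ± 4.83 CPM (adjusted p = 0.037) and lost its call on removal of each library except DMSO replicate 1 (adjusted p up to 0.15).

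**Figure D5:**
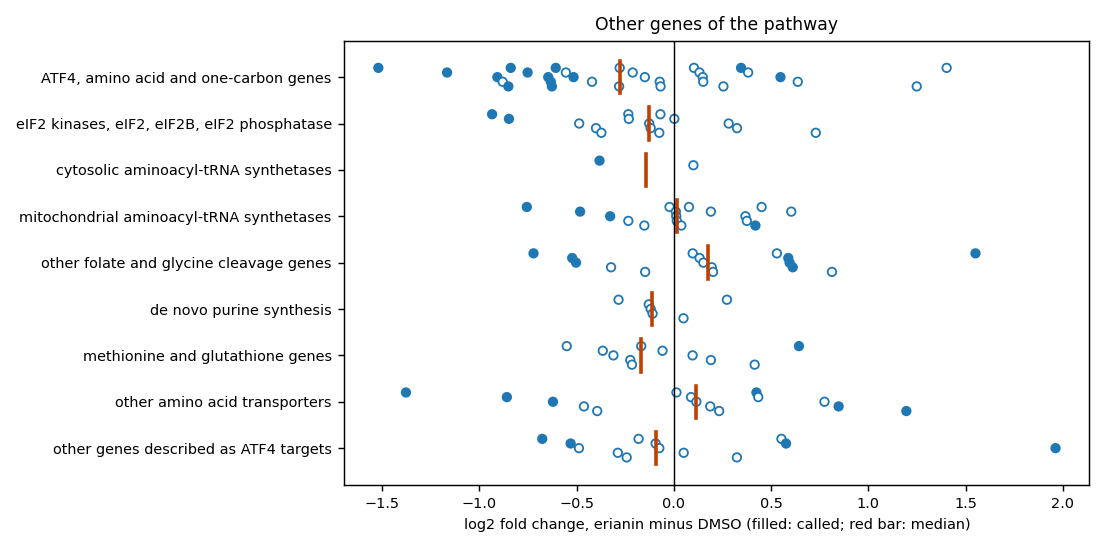
Log2 fold change of erianin minus DMSO for the tested genes of the group and of 8 other lists, filled where called, with the median of each list as a red bar. The group's median of -0.28 lies to the left of 0, and called genes stand on both sides of 0 in 4 of the 8 other lists.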

How the data were processed

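The authors deposited whole-number counts per gene and a matching TPM table. Tools listed per the submitters' processing notes are featureCounts 2.0.1, StringTie 2.2.1, STAR 2.7.10 and fastp 0.23.2, with build GRCh38. For the annotation and the strand setting, nothing is given in the sources used here. TPM columns summed to 39.2% of 1000000 in DMSO replicate 1 and 63.6% to 66.7% in the others. Repeated symbols (61 of 65807 entries) were left out.

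Counts were tested with the edgeR 4.0.16 quasi-likelihood test (R 4.3.3) with TMM factors after filterByExpr. Each SE was the absolute log2 fold change divided by the root of its F. Alternatives included DESeq2 1.42.0, limma 3.58.1 on counts (voom) and on log2(TPM + 1) and log2(TPM + 0.1), and GC content and length offsets (mgcv 1.9.3). Fits were also run on counts simulated with the same spread in every library. DMSO replicate 1 lay farther from its group than that, so the simulation does not measure the error of these calls. A floor of 3 counts equals 0.0843 to 0.0969 CPM and covers counting error only. Whether replicates were separate cultures is not stated, so p-values measure the spread between libraries. Positions came from GENCODE 29.

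The genes and lists were chosen with earlier results of these data known. All 36 genes are named, with up to 3 genes of smallest p from each other list.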

Additional observations from a re-analysis of the deposited data

How the results depend on the processing

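Called genes numbered 1368 higher and 1423 lower with all libraries. Leaving out 1 library gave 407 to 3278 higher and 338 to 3227 lower, 0 to 5 of the group higher and 4 to 18 lower. The largest counts came without DMSO replicate 1. Total counts alone gave 1840 higher and 918 lower. With log2(TPM + 1) and log2(TPM + 0.1), 1408 and 1263 genes rose and 262 and 245 fell, while 0 of the group rose and 3 fell on each scale; the 3 were ASNS, CTH and SLC38A2. These scalings moved the median of all genes to 0.11, 0.20 and 0.28. Offsets without DMSO replicate 1, added after seeing the data, gave 3613 and 3607 genes, and 7 and 19 of the group. In the replicate block fit, 1139 genes rose and 1157 fell, and 13 of the group were called, CEBPB and DDIT4 in place of ATF5 and SLC7A11. Deviations of same-numbered libraries correlated at 0.17, -0.14 and 0.23, so the numbers were not taken as pairs. Leaving out 1 library, the SHMT2 to SHMT1 difference ranged from -0.049 to 0.011 and turned sign without DMSO replicate 2 (0.011) or erianin replicate 2 (0.010), and that of SLC7A11 to SLC3A2 (-0.21) ranged from -0.42 to 0.16, the latter without DMSO replicate 1. The narrower TGATGCAA was held by 5 genes.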
